A study of Homo sapiens with 8 samples.

Results

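Immunoglobulin-type cell adhesion molecules are membrane proteins whose extracellular part is built from immunoglobulin folds. The 10 genes described here are PECAM1, ICAM1, ALCAM, MCAM, L1CAM, CLMP, F11R, CXADR, CEACAM1 and BCAM, out of 58206 genes in the count table. They were taken by name, each symbol matched to 1 Ensembl identifier. RNA was sequenced from Alexander1 (ATCC CRL-8024), an established human hepatocellular carcinoma line of epithelial type, in 2 groups of 4 libraries. The parental group, of genotype "wt (Axin1 -)", carries an Axin1 that lacks its GSK3-binding region, which leaves Wnt signalling constantly active according to the series text. The second group, "Axin1 + (Addgene plasmid #24928)", is a derivative of the same line given full-length Axin1 and is called restored-labelled here. The labels list retroviral transfer and clonal selection in hygromycin B for all 8 libraries and do not say how many clones the derivative comes from, so a change in a clone and a change with Axin1 cannot be told apart. Nothing in the labels says whether the 4 libraries of a group were separate cultures, so all errors describe the spread between these libraries.

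In this protein family, most members bridge neighbouring cells by binding a copy of themselves or a partner on the facing membrane, and their short tails connect to actin, to scaffolds with PDZ domains or to phosphatases. ICAM1 is best known in liver as the inflammation-inducible ligand of leukocyte integrins. F11R (also called JAM-A), CXADR and CLMP belong to the junctional branch of the family found at tight junctions. PECAM1 is best known from endothelial cells and platelets, and CEACAM1 from the bile canalicular face of hepatocytes.

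The libraries held between 11232951 and 26400782 counts, with the restored-labelled ones deeper on the whole, and 3 counts correspond to between 0.108 and 0.267 CPM, the count relative to the library total after scaling. AXIN1 mRNA was not higher in the restored-labelled libraries, at 45.4 CPM ± 5.13 (SD, n = 4) against 52.4 CPM ± 3.49 (SD, n = 4), so every direction below rests on the labels. All 10 hepatocyte and hepatoma markers listed reached a mean of 1 CPM in each group, but their levels were not all alike: in edgeR's test FGB and TTR were higher and SERPINA1 and TF lower in the restored-labelled libraries. Restored-labelled replicate 1 stood apart in ALB, at 13.8 CPM against 445 to 681 CPM in the other 3. Among the other markers examined, it also stood apart in KRT19, at 34.4 CPM against 0.0781 to 1.43 CPM. LCP1 was at 237 CPM there, against 24.6 to 26.8 CPM in the other 3 and 280 to 318 CPM in the parental libraries. Without restored-labelled replicate 1 the log2 fold changes described below were 3.36 for PECAM1, 3.12 for L1CAM, 0.90 for CEACAM1, 0.48 for ICAM1, -0.61 for ALCAM and -6.45 for CLMP. Of 10 epithelial markers, 6 reached a mean of 1 CPM in each group. KRT8 stood at 2490 and 2332 CPM in the parental and restored-labelled libraries, while EPCAM stayed at 5 counts or fewer in every library. ESRP1 and GRHL2 had 3 counts or fewer in every library. Restored-labelled KRT19, with 959, 2, 29 and 2 counts in replicates 1 to 4, rested mostly on replicate 1. The 10 adhesion genes were chosen by family name with the read counts and fold changes of this same comparison known. Their group differences are therefore given as a description, with a 95% confidence interval from the edgeR fit over all genes and without p-values.

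PECAM1 (CD31; ENSG00000261371, chromosome 17, 64319415 to 64413776, minus strand, GRCh38) is a homophilic receptor whose tail carries inhibitory tyrosine motifs. Parental replicates 1 to 4 gave 5.25, 4.47, 6.50 and 4.51 CPM, whereas restored-labelled replicates 1 to 4 gave 33.8, 50.7, 49.9 and 58.3 CPM. The lowest restored-labelled library, replicate 1, lay far above the highest parental one, and the groups did not overlap. The means were 5.18 CPM ± 0.951 and 48.2 CPM ± 10.3 (SD, n = 4 each), a 9.32-fold difference with a confidence interval from 6.79 to 12.8. These values rest on 59 to 73 counts per parental and 614 to 1494 counts per restored-labelled library. Defining markers of endothelium were nearly absent in both groups. Of 10 endothelial markers, 6 (KDR, TEK, TIE1, CLDN5, EMCN and ERG) had 3 counts or fewer in every library, and TEK and EMCN had none. CDH5 reached at most 4 counts and VWF at most 6. The summed level of the 10 markers ranged from 43.2 to 54.9 CPM in the parental and from 31.7 to 40.2 CPM in the restored-labelled libraries, nearly all of it EGFL7, at means of 45.9 and 36.8 CPM. In a bulk sample, more cells carrying a transcript and more transcript per cell cannot be told apart.

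CEACAM1 (ENSG00000079385, chromosome 19, 42507304 to 42561234, minus strand) is the second member with inhibitory tyrosine motifs in its tail, present on its long isoforms. It stood at 32.3, 47.3, 38.4 and 18.5 CPM in the parental libraries and at 61.2, 71.8, 57.4 and 61.5 CPM in the restored-labelled ones. The groups did not overlap, and the parental values were the more scattered, with replicate 4 lowest. The means of 34.1 CPM ± 12.1 and 63.0 CPM ± 6.19 (SD, n = 4 each) differed 1.85-fold (confidence interval 1.29 to 2.63). Reads shared with near-identical relatives could blur this value, since how the authors treated them is not given in the sources used here. Of its relatives in the list, CEACAM3, CEACAM4, CEACAM5, CEACAM7, CEACAM8 and CEACAM21 had no count in any library. CEACAM6 had at most 2 counts in a parental library and 60, 4, 11 and 17 in the restored-labelled ones, each of which held 870 or more CEACAM1 counts. An exon of LIPE-AS1 overlaps CEACAM1 by 185 bases on the opposite strand, at levels between 0.880 and 3.75 CPM.

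The RefSeq promoter table (GRCh38.p14) held 6 of the 10 genes, in 8 windows, and the 250 bases before each start were searched on both strands for letters known from factors of Wnt and cytokine signalling. The TCF/LEF core CTTTGA was found in the CEACAM1 window and in none of the other 7, and it occurs in 11.2% of all 35116 promoter windows of that length. The stretch of the CEACAM1 window outside annotated exons is shown because it holds that match (TCAAAG as read here) and an SP1 box (GGGCGG, here read as CCGCCC, in 42.6% of windows), both in capitals. It covers chr19:42528510-42528731 on the minus strand.
CEACAM1: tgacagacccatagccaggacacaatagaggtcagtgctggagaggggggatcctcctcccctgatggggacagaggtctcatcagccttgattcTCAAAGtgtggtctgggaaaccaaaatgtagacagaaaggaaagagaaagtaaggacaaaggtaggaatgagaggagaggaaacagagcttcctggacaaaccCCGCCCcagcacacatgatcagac
The match starts 155 bases before the RefSeq start, and whether any factor occupies it was not measured.

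ICAM1 (ENSG00000090339, chromosome 19, 10270835 to 10286615, plus strand), the ligand of the leukocyte integrins LFA-1 and Mac-1, was the most abundant of the 10 per unit length in both groups. The parental libraries, in replicate order, had 164, 203, 152 and 239 CPM and the restored-labelled ones 369, 249, 273 and 271 CPM. The groups were separate by a narrow margin, from 239 in parental replicate 4 to 249 in restored-labelled replicate 2. Means of 189 CPM ± 39.7 and 290.4 CPM ± 53.2 (SD, n = 4 each) differed 1.53-fold (confidence interval 1.17 to 2.01). Of its relatives ICAM2 to ICAM5, 3 were tested and none passed the edgeR test. ICAM3, on the same chromosome, had a log2 fold change of 0.01 (confidence interval -0.31 to 0.32).

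The ICAM1 promoter is a textbook case of cytokine control, and both kinds of site were present in the RefSeq window. The NF-kB type site GGAAATTCC occurs in 0.413% of all windows and the STAT type pattern TTCNNNGAA in 6.57%. Each is shown in capitals within 30 bases, at chr19:10270924-10270953 and chr19:10271035-10271064 on the plus strand.
ICAM1 NF-kB site: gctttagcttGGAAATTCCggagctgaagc
ICAM1 STAT site: ggcgcgaggtTTCCGGGAAagcagcaccgc
These start 186 and 75 bases before the RefSeq start. Neither pattern was found in the windows of ALCAM, MCAM, L1CAM, CEACAM1 or BCAM, and the kappa-type NF-kB motif (1.73% of windows) and the AP-1 site TGANTCA (6.57%) were found in none of the 8.

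**Figure D1:**
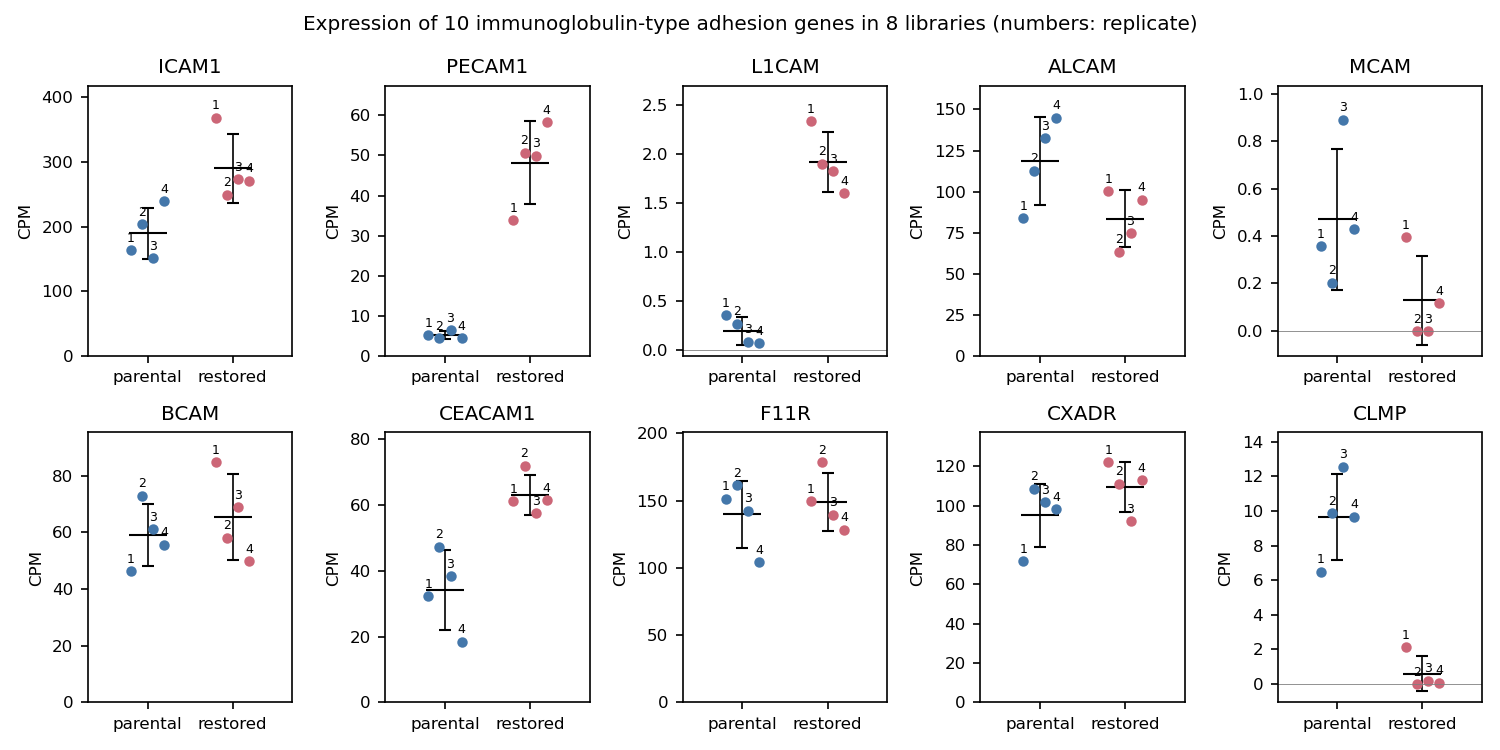
Expression of the 10 adhesion genes in CPM (vertical axes, separate scale per gene) in 4 parental and 4 restored-labelled libraries. Points are libraries numbered by replicate, bars the mean and SD. PECAM1, L1CAM, CEACAM1 and ICAM1 lie higher and CLMP lower in every restored-labelled library, and the CLMP value of 2.12 CPM in replicate 1 stands off from the other restored-labelled ones.

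L1CAM (ENSG00000198910, chromosome X, 153861514 to 153886174, minus strand), a neural adhesion molecule that also appears in invasive carcinomas, was close to the detection limit in the parental line. It had 4, 4, 1 and 1 counts in parental replicates 1 to 4, or 0.356, 0.271, 0.0891 and 0.0716 CPM. The restored-labelled libraries held 65, 23, 37 and 41 counts, or 2.33, 1.90, 1.82 and 1.60 CPM. The groups did not overlap, and the restored-labelled values were close to each other. The fitted difference was 9.48-fold (confidence interval 4.85 to 18.5), its size resting on 10 counts in the whole parental group. NRCAM, the 1 other tested gene of the L1 branch, named after its values were seen, also rose, from a parental 1.04 ± 0.419 to 5.20 ± 2.77 CPM (SD, n = 4 per group; edgeR adjusted p = 0.0105, log2 fold change 2.31, SE 0.50). Restored-labelled replicate 1, at 1.44 CPM, lay inside its parental range. A second locus (ENSG00000284987) shares 439 exon bases with L1CAM on the same strand and is not among the genes counted. CHL1 had no count in any library.

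ALCAM (CD166; ENSG00000170017, chromosome 3, 105366909 to 105576900, plus strand) pairs with itself or with CD6 on lymphocytes. It was the only abundant member with a lower mean in the restored-labelled libraries, at 84.0, 113, 133 and 145 CPM in the parental and 100.4, 63.4, 74.6 and 95.1 CPM in the restored-labelled libraries. The groups overlapped, because parental replicate 1 lay below restored-labelled replicates 1 and 4. Means of 119 CPM ± 26.6 and 83.4 CPM ± 17.4 (SD, n = 4 each) gave a log2 fold change of -0.51 (SE 0.19, confidence interval -0.93 to -0.08). The windows of ALCAM, MCAM, L1CAM and BCAM held the SP1 box alone of the 6 motifs, and a link between motifs and direction of change was not tested. The ALCAM window, chr3:105366659-105366908 on the plus strand, is shown as an example (SP1 box in capitals).
ALCAM: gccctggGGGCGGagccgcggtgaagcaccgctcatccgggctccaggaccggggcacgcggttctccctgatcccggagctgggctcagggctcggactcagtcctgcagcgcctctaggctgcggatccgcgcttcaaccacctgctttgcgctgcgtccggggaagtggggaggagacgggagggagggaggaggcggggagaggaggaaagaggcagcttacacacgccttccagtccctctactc

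BCAM (ENSG00000187244, chromosome 19, 44809059 to 44821421, plus strand), the Lutheran blood group protein and a receptor for laminin alpha-5, had 46.5, 73.0, 61.1 and 55.8 CPM in the parental and 84.7, 58.2, 69.0 and 49.8 CPM in the restored-labelled libraries. The ranges overlapped, with restored-labelled replicate 1 above every parental library, and the groups had a log2 fold change of 0.15 (SE 0.19, confidence interval -0.26 to 0.56). MCAM (CD146; ENSG00000076706, chromosome 11, 119308529 to 119321521, minus strand), a melanoma and endothelial adhesion molecule, did not pass the filter on low counts and was the 1 member not tested. It had 4, 3, 10 and 6 counts in the parental and 11, 0, 0 and 3 counts in the restored-labelled libraries. Exons of CBL overlap those of MCAM by 509 bases on the opposite strand. CBL stood between 21.4 and 54.1 CPM, and the use of strand in counting is not given in the sources used here, so even these few reads may not be MCAM's own.

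The junctional members were unlike each other. F11R (ENSG00000158769, chromosome 1, 160995211 to 161021348, minus strand) stood at 151, 161, 142 and 104 CPM in the parental and 150, 179, 140 and 128 CPM in the restored-labelled libraries. The values of the 2 groups were interleaved, with a log2 fold change of 0.09 (SE 0.16, confidence interval -0.26 to 0.44) that was -0.03 without parental replicate 4. An unnamed locus (ENSG00000270149) shares 1853 exon bases with F11R on the same strand and had no count in any library. CXADR (ENSG00000154639, chromosome 21, 17512382 to 17593579, plus strand), the receptor of coxsackieviruses and many adenoviruses, had 71.9, 109, 102 and 98.2 CPM in the parental and 122, 111, 92.0 and 113 CPM in the restored-labelled libraries. Parental replicate 1 was lowest, restored-labelled replicate 3 lay inside the parental range, for a log2 fold change of 0.20 (confidence interval -0.12 to 0.53, SE 0.15).

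CLMP (ENSG00000166250, chromosome 11, 123069865 to 123195281, minus strand), a relative of CXADR at tight junctions whose loss in humans causes a congenital short bowel, was close to absent from 3 of the 4 restored-labelled libraries. Its parental levels were 6.50, 9.88, 12.6 and 9.66 CPM, on 73 to 146 counts per library. In restored-labelled replicates 1 to 4 it had 59, 0, 4 and 2 counts, or 2.12, 0, 0.197 and 0.0781 CPM. Every restored-labelled library lay below every parental one, and replicate 1 alone held most of the group's counts. The means were 9.65 CPM ± 2.48 and 0.598 CPM ± 1.02 (SD, n = 4 each), and the fitted level was 14.2-fold lower (confidence interval 4.23 to 47.7). The log2 fold change moved from -3.83 to -6.45 without restored-labelled replicate 1.

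Per kilobase of exon (RPKM, from union exon lengths in GENCODE 29), the order of levels in the parental line was ICAM1 at 51.1 ± 10.7, F11R at 27.6 ± 4.91, ALCAM at 16.5 ± 3.71, CXADR at 14.2 ± 2.40, BCAM at 11.8 ± 2.21 and CEACAM1 at 6.17 ± 2.19 RPKM (SD, n = 4). CLMP followed at 1.89, PECAM1 at 0.668, MCAM at 0.0633 and L1CAM at 0.0271 RPKM. ALCAM and CXADR, CXADR and BCAM, and MCAM and L1CAM had overlapping ranges, and the other neighbours in this order did not overlap. In the restored-labelled libraries ICAM1 (78.4 ± 14.4 RPKM) and F11R (29.4 ± 4.25) kept the first places. CXADR, BCAM, ALCAM and CEACAM1 came next, between 16.4 and 11.4 RPKM, each overlapping its neighbour. PECAM1 reached 6.21 ± 1.33 RPKM, apart from CEACAM1 above it and from L1CAM (0.263 RPKM) below, while CLMP (0.117) and MCAM (0.0172) came last.

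Within the summed RPKM of the 10 genes, the PECAM1 share was between 0.399% and 0.669% in the parental and between 2.24% and 4.78% in the restored-labelled libraries. The ALCAM share was between 10.3% and 14.8% in the parental libraries and between 5.54% and 8.41% in the restored-labelled ones. The shares were separate although the CPM values overlapped, and a share also falls when the summed level rises. Restored-labelled replicate 1 had more ALCAM than parental replicate 1 (100.4 against 84.0 CPM) but a lower share (7.2% against 10.3%). The ICAM1 share, 32.6% to 47.1% against 42.2% to 51.2%, overlapped between the groups. The summed level itself was 114, 144, 125 and 137 RPKM in the parental and 194, 159, 156 and 157 RPKM in the restored-labelled libraries.

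**Figure D2:**
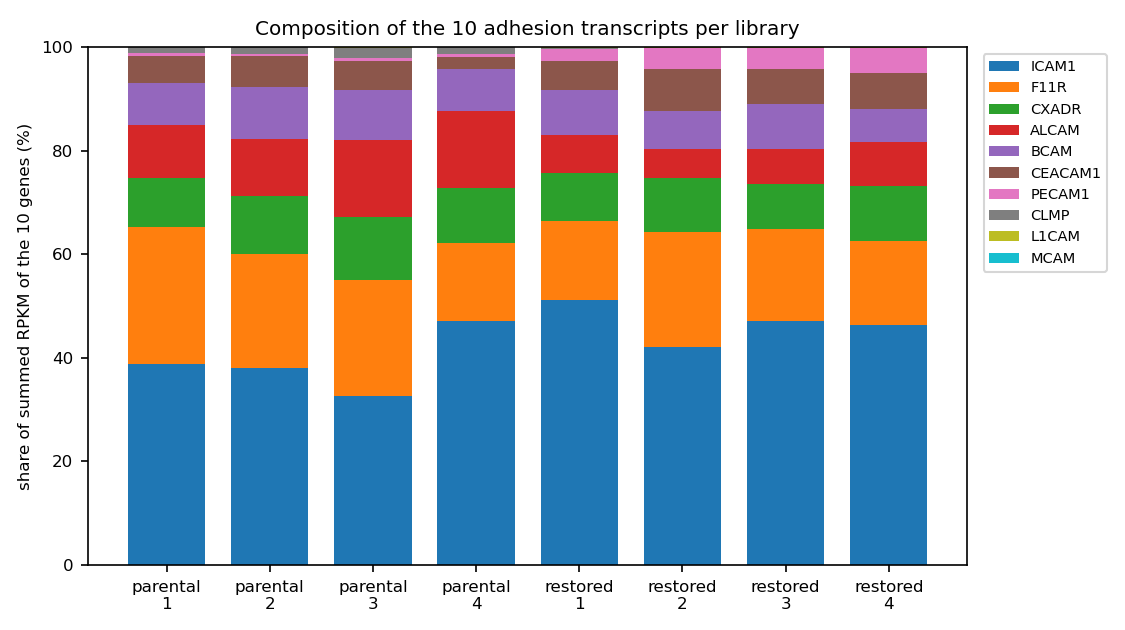
Share of each of the 10 genes in their summed RPKM (vertical axis, percent) for each of the 8 libraries (horizontal axis), stacked from ICAM1 at the base. ICAM1 and F11R make up most of each bar, PECAM1 is a visible band in the restored-labelled libraries, and ALCAM narrows from at least 10.3% to at most 8.41%. The ALCAM values in CPM overlap between the groups.

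Of the 9 members tested, 4 were higher and 1 was lower at an adjusted p under 0.05 in edgeR's quasi-likelihood test, against 10.4% and 8.77% of all 14289 tested genes. The same 5 were those without overlap between the groups, against 23.9% of all genes (12.7% higher and 11.2% lower). Since the members were proposed with this comparison known, nothing is read from these counts. The median log2 fold change of the 9 was 0.20, against 0.00 for all tested genes, with values from -3.83 to 3.24. Whether a member moved with its chromosome region was described by its 40 nearest tested genes, 20 on each side. For CEACAM1 these had a median of 0.44, with 11 of 40 higher and 0 lower at the same threshold, against the gene's own 0.88. Around the other members between 4 and 10 of 40 were called, the most for F11R and BCAM (7 higher and 3 lower each). The neighbours of PECAM1 (median 0.11), ICAM1 (0.10), CLMP (0.11), L1CAM (-0.18) and ALCAM (-0.02), and those of MCAM (-0.08) and F11R (-0.01), lay between -0.18 and 0.11. CXADR and BCAM, at 0.20 and 0.15, did not lie above the medians of their neighbours, 0.24 and 0.17. The gene next to L1CAM, PDZD4, had a log2 fold change of 3.11 (named after its value was seen), close to L1CAM's 3.24, while ARHGAP4 on the other side had -0.57.

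**Figure D3:**
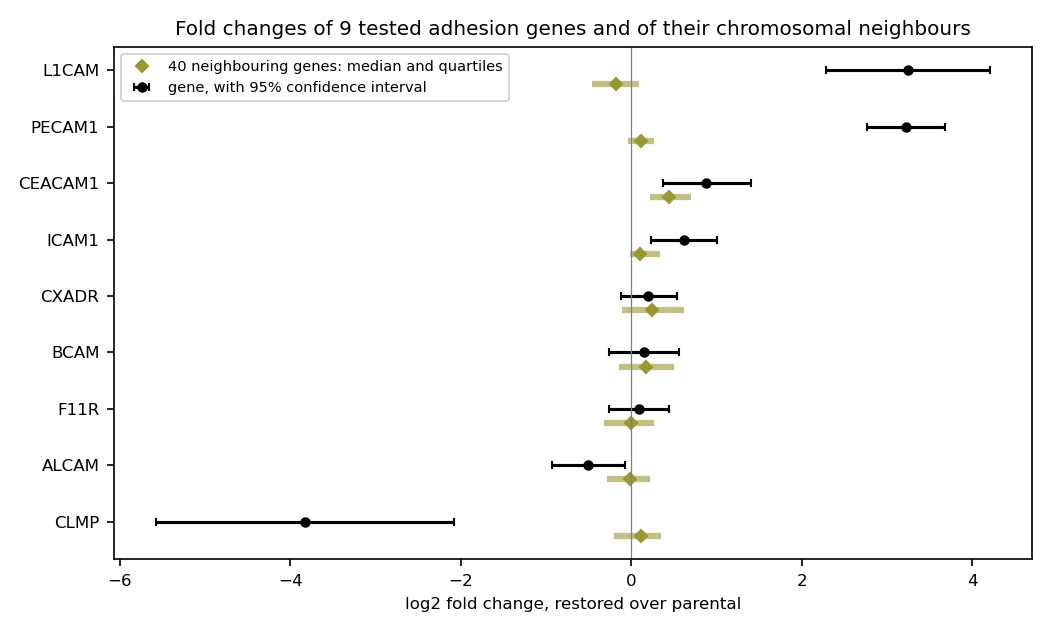
Log2 fold change, restored-labelled over parental (horizontal axis), of the 9 tested adhesion genes (black points, 95% confidence interval) and the median with quartiles of their 40 chromosomal neighbours (olive). L1CAM and PECAM1 lie above 3 and CLMP below -3, far from the medians of their neighbours, whereas the CEACAM1 neighbours have a median of 0.44.

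Profiles across the 8 libraries were compared with those of 13558 other genes of at least 1 CPM, by the root mean square difference of log2 CPM after centring each gene. Nearest to L1CAM were S100A9, MMP14 and EMC10, at differences of 0.22, 0.29 and 0.32. All 3 are more abundant than L1CAM, and MMP14, for example, went from 13.4 to 78.0 CPM. The parental L1CAM values rest on 4, 4, 1 and 1 counts, so which genes lie nearest depends on few counts and on the prior count of 2. Nearest to CLMP were KCNJ3, DSE and ZNF302, at 0.54, 0.55 and 0.56. They were picked for likeness over all 8 libraries, so a raised value in restored-labelled replicate 1 follows from the choice. DSE, for example, had 9.58 CPM there and between 0.838 and 1.33 CPM in the other 3 restored-labelled libraries, against 21.7 to 47.2 CPM in the parental ones.

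Other adhesion molecules of the immunoglobulin class were counted from a list of 75 genes, 32 of them tested. At an adjusted p under 0.05 in edgeR's test over all genes, 8 rose and 1 fell, with a list median of 0.06. Among all tested genes 10.4% rose and 8.77% fell, 19.2% in all. This list and those below were chosen with earlier results of these data known, so nothing is read from their counts. VSIG1, a junctional relative of F11R, fell from a parental 6.20 ± 3.63 to 0.370 ± 0.129 CPM (SD, n = 4 per group; edgeR adjusted p = 0.00104, log2 fold change -4.07, SE 0.57), with parental replicate 1 at 1.34 CPM and the other parental libraries at 5.51 or more. JAM3, a second relative, rose at a low level, from between 0.0890 and 0.644 CPM in the parental to between 1.32 and 1.65 CPM in the restored-labelled libraries (log2 fold change 1.82, SE 0.42, edgeR adjusted p = 0.0136). Exons of JAM3 overlap NCAPD3 on the opposite strand, which stood at a mean of 54.2 CPM. CNTN1, a contactin anchored to the membrane by a lipid and usually studied in neurons, rose from a parental 138 ± 58.2 to 323 ± 111 CPM (SD, n = 4 per group; edgeR adjusted p = 0.0324), a call lost without parental replicate 2 or 3 or restored replicate 3 or 4. NECTIN2, which anchors afadin at adherens junctions, rose 1.43-fold, from 179 to 255 CPM (edgeR adjusted p = 0.0144), and its relative PVR rose 1.26-fold, from 74.3 to 93.8 CPM (edgeR adjusted p = 0.0422). The call for NECTIN2 was lost without parental replicate 2 or restored replicate 3. PVR lost it when any 1 library other than restored replicate 1 was left out. EMB, a basigin relative, rose at a low level from 0.460 to 1.35 CPM (edgeR adjusted p = 0.0423), a call also lost when any 1 library other than parental replicate 1 was left out. Beside NRCAM, described with L1CAM, the remaining 2 that rose, IGSF8 and SDK2, named after their values were seen, had log2 fold changes of 0.69 and 1.17, and the groups overlapped. Without parental replicate 2, parental replicate 3, restored replicate 3 or restored replicate 4, the count of 9 changed genes was 3, 5, 3 and 4.

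Partners on the facing cell or in the matrix were taken from a list of 25 genes, of which 14 were tested, 3 rose and 2 fell in edgeR's test over all genes, with a median of 0.12. Among all tested genes 10.4% rose and 8.77% fell, 19.2% in all. ITGB1, the integrin beta chain that binds L1CAM and matrix proteins, rose from a parental 422 ± 138 to 914 ± 243 CPM (SD, n = 4 per group; edgeR adjusted p = 0.0178, log2 fold change 1.11, SE 0.27), though the edgeR adjusted p was 0.0610 without restored replicate 4. NRP2, a semaphorin co-receptor, rose from a parental 1.57 ± 0.389 to 7.62 ± 3.40 CPM (SD, n = 4 per group; edgeR adjusted p = 0.00148, log2 fold change 2.29, SE 0.34). LGALS3, a galectin that binds glycans on adhesion molecules, fell from a parental 304 ± 164 to 92.5 ± 27.7 CPM (SD, n = 4 per group; edgeR adjusted p = 0.0102, log2 fold change -1.72, SE 0.37). Parental LGALS3 was 511, 344, 234 and 126 CPM in replicates 1 to 4, the last just above restored-labelled replicate 1 at 120 CPM. LAMA5, the laminin chain bound by BCAM, was named after its values were seen and rose from 106 to 171 CPM (edgeR adjusted p = 0.0321). The fifth was FN1, fibronectin, also named afterwards, which fell from 1059 to 457 CPM (edgeR adjusted p = 0.0121). The FN1 values of the groups overlapped. ITGB2, the beta chain of the leukocyte integrins that bind ICAM1, had at most 7 counts in any library, and CD6, the partner of ALCAM, at most 1.

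Proteins that bind the tails of these receptors, with spectrins, small GTPases and other cytoplasmic partners, made up a list of 36 genes. Of the 34 tested, 2 rose and 4 fell in edgeR's test, beside 10.4% and 8.77% of all tested genes, with a median of 0.09. A total of 6 of 34 is near the 19.2% called among all genes. ANK3, the ankyrin that ties L1-type molecules to spectrin, fell from a parental 4.75 ± 1.80 to 0.515 ± 0.181 CPM (SD, n = 4 per group; edgeR adjusted p = 0.000603, log2 fold change -3.20, SE 0.41). TJP3, the tight junction scaffold ZO-3, rose from between 23.2 and 40.1 CPM in the parental to between 62.0 and 99.2 CPM in the restored-labelled libraries (edgeR adjusted p = 0.000615, log2 fold change 1.58, SE 0.20). FLNA, filamin A, rose from a parental 296 ± 96.0 to 569 ± 102 CPM (SD, n = 4 per group; edgeR adjusted p = 0.0132, log2 fold change 0.94, SE 0.21). The other 3 that fell, PARD3, SPTAN1 and CTTN, had log2 fold changes of -0.37, -0.63 and -0.44 and were named after their values were seen. The phosphatases recruited by PECAM1 and CEACAM1 did not pass the test, PTPN6 at 28.0 and 22.0 CPM and PTPN11 at 155 and 167 CPM in the parental and restored-labelled libraries. The count of 6 changed genes was 3 with library totals as the only scaling, and 3 without parental replicate 2 or without restored replicate 2, 3 or 4.

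Genes of NF-kB signalling and cytokine response, the pathway of the site shown for ICAM1, were counted from a list of 28. Of the 22 tested, 2 rose and 4 fell in edgeR's test, beside 10.4% and 8.77% of all tested genes (19.2% in all), with a median of -0.27. SOD2, a mitochondrial superoxide dismutase induced by NF-kB, fell from a parental 939 ± 120 to 473 ± 175 CPM (SD, n = 4 per group; edgeR adjusted p = 0.0134, log2 fold change -0.99, SE 0.23), though the edgeR adjusted p was 0.0509 without restored replicate 4. Exons of SOD2 share 298 bases with WTAP on the opposite strand, which stood at a mean of 68.4 CPM. They share 845 bases on the same strand with a second SOD2 locus (ENSG00000285441), which is not among the genes counted. The other 3 that fell were feedback inhibitors, named after their values were seen: NFKBIA (81.9 to 48.8 CPM), TNFAIP3 (84.5 to 48.8 CPM) and NFKBIE (50.6 to 36.9 CPM). For NFKBIA and TNFAIP3 the groups overlapped. STAT3, a cytokine-activated transcription factor, rose from a parental 91.6 ± 6.45 to 166 ± 17.8 CPM (SD, n = 4 per group; edgeR adjusted p = 0.000985, log2 fold change 0.86, SE 0.12). IRF1, an interferon-response factor, rose from 17.3 to 24.6 CPM (log2 fold change 0.51, SE 0.15, edgeR adjusted p = 0.0331), a call lost without any 1 library other than parental replicate 1 or restored replicate 1. The count of 6 changed genes was 1 without restored replicate 4, 2 without parental replicate 4 or restored replicate 3, and 3 without replicate 2 of either group.

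Enzymes that cut adhesion molecules from the surface, other proteases and the protease inhibitors TIMP1, TIMP2 and TIMP3 made up a list of 16 genes. Of the 12 tested, 2 rose and none fell in edgeR's test, with a median of 0.11. A total of 2 of 12 is near the 19.2% called among all tested genes. MMP14, a membrane-bound metalloproteinase, rose from a parental 13.4 ± 4.67 to 78.0 ± 22.5 CPM (SD, n = 4 per group; edgeR adjusted p = 0.000222, log2 fold change 2.54, SE 0.27). BACE2, an aspartyl protease, had 2, 3, 0 and 0 counts in the parental libraries and 22 to 48 in the restored-labelled ones (log2 fold change 3.95, SE 0.61, edgeR adjusted p = 0.00165). The sheddases of the L1 family, ADAM10 and ADAM17, had log2 fold changes of 0.71 and -0.03 and did not pass the test, with edgeR adjusted p of 0.0633 and 0.904. Without parental replicate 1, the count of 2 was 5.

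**Figure D4:**
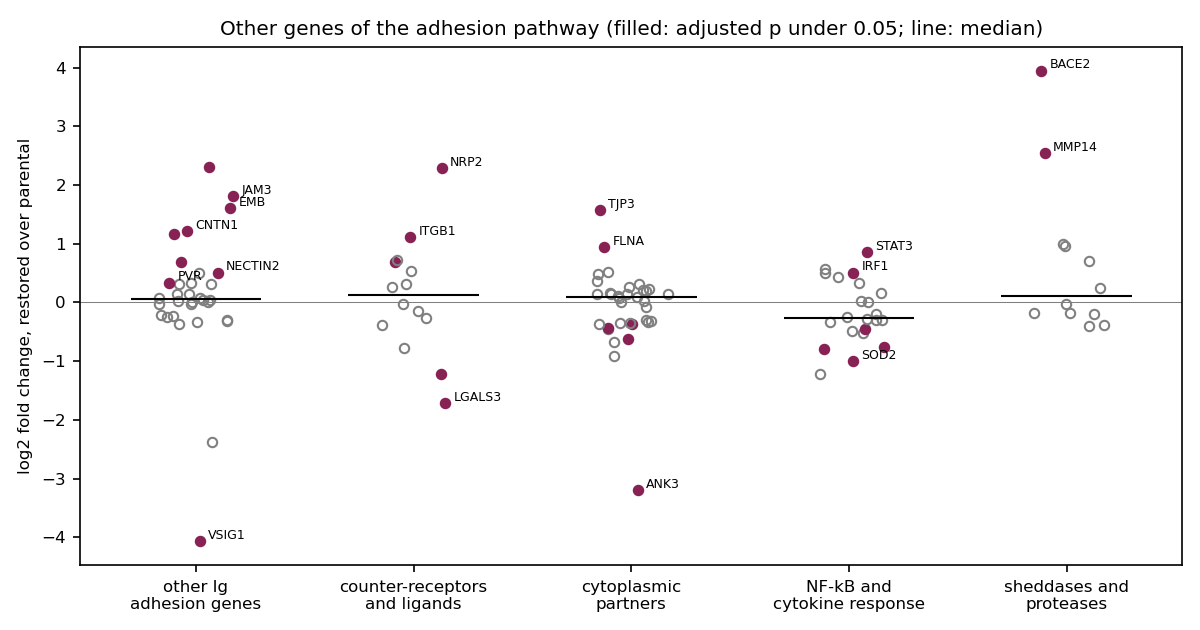
Log2 fold change, restored-labelled over parental (vertical axis), of every tested gene of the 5 lists (horizontal axis). Filled points passed an adjusted p of 0.05 in edgeR's test, and lines are list medians. The medians lie between -0.27 and 0.12, and individual genes spread from -4.07 to 3.95.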

How the data were processed

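RNA was measured by mRNA-seq in 8 libraries, 4 per group, with groups and replicate numbers from the sample titles. Per gene and library, the deposited table gives unnormalized counts, as its whole numbers and unequal totals show. The submitters' processing notes name bcl2fastq, fastp 0.23.1, STAR 2.7.4 and GRCh38. The counting program, annotation and use of strand are not given in the sources used here. Libraries were made with the KAPA mRNA HyperPrep kit, per the labels' protocols. All 8 columns matched a sample, leaving 0 columns of no sample.

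Of 58206 identifiers, 57943 were found in GENCODE 29, the source of coordinates, exon overlaps and exon lengths. Promoter sequences are RefSeq's (GRCh38.p14). In R 4.3.3 with edgeR 4.0.16, low genes were removed by filterByExpr (total of at least 15, count of at least 10), TMM factors scaled the libraries, and the quasi-likelihood test compared the groups without covariates. P-values are two-sided and Benjamini-Hochberg adjusted over 14289 genes, with a threshold of 0.05. Profiles used log2 CPM with a prior count of 2.

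The members and the gene lists were chosen with earlier results of these data known. Named genes were those with the largest absolute log2 fold changes past the threshold, with at least 1 CPM in a group and no overlap between groups, up to 6 from the first list, 3 from each other list and 2 from the proteases. Others are said to be named after their values were seen. Alternatives were other scalings and filters, DESeq2 1.42.0, limma-voom (limma 3.58.1), libraries thinned to 11232951 counts, a threshold of 0.01, a replicate block and each library left out. Tested on simulated data for this comparison (14086 genes), the fit recovered 62.8% of 94 genes changed by 1 on the log2 scale and 93.8% of 97 changed by 2, with 2.6% of 154 calls false. Far fewer genes were changed there than the 2738 called in the data, and counts were drawn independently. These rates therefore may not hold for the real libraries.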

Additional observations from a re-analysis of the deposited data

Results flagged for a closer look

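Values of 27 named genes were checked in each group of 4 libraries for a library whose gap to its nearest neighbour, divided by the range of the group, exceeded Dixon's 95% critical value for 4 samples. Of 54 such groups 3 did, and chance gives about 1 in 20. CLMP in restored-labelled replicate 1 stood at 2.12 CPM, above 0 to 0.197 CPM in the other 3. ANK3 in parental replicate 1 stood at 2.05 CPM, below 5.51 to 5.82 CPM in the other 3. FLNA in parental replicate 1 stood at 439 CPM, above 236 to 256 CPM in the other 3.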

How the results depend on the processing

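Of the 9 tested members, 7 kept the sign of their log2 fold change in all 17 alternatives, F11R and BCAM being the exceptions, at -0.03 to 0.18 and -0.00 to 0.26. The CLMP value moved to -6.45 without restored replicate 1 and to -5.36 with limma-voom. The members' median stayed between 0.13 and 0.28. The 2738 genes past the threshold were 964 at an adjusted p under 0.01 and 1394 (without restored replicate 4) to 3523 (without parental replicate 1) with 1 library left out. Leaving 1 library out gave 3 to 11 of the other adhesion genes, 4 to 5 partner genes, 3 to 8 cytoplasmic genes, 1 to 8 NF-kB and cytokine genes and 2 to 5 proteases. At an adjusted p under 0.01 these counts were 1, 1, 2 and 1 for the first 4 lists. The cytoplasmic count was 3 with total counts only, and the protease count was 4 without a filter, 1 with a mean of at least 1 CPM and 5 in DESeq2's Wald test. The cause of these shifts was not tested. Scaling by total counts moved the median of all genes to 0.09 and the calls to 1724 higher and 868 lower, from 1485 and 1253.

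Replicate numbers did not pair the libraries: same-numbered ones had deviations correlated at -0.0629 to 0.227, others at -0.425 to 0.448. A replicate block gave 2033 genes in all, 3 partner genes and 3 cytoplasmic genes, and the median of the members was 0.21. The calls for NECTIN2, PVR, EMB and IRF1 were lost under the block, with edgeR adjusted p of 0.0516, 0.0986, 0.0621 and 0.0771, and those of the other named list genes were kept. At 3 counts per library, levels under 0.108 to 0.267 CPM could not be resolved, which limits MCAM, parental L1CAM and restored-labelled CLMP.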
